A study of Mus musculus with 2 samples.

Results

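The 9 genes described here are Rag1 and Rag2, which encode the recombinase of antigen receptor genes, and 7 regulators that act on them directly or control them in developing lymphocytes: Foxo1, Foxo3, Irf4, Irf8, Ikzf1, Ikzf3 and Gadd45a. Every non-control probe whose gene name in the array's design, or the current symbol behind an older name, is one of these was kept. That gave 16 probes of 41174, for 9 of 27669 genes, printed as 34 spots on each array. A log2 ratio is autoreactive over non-autoreactive cells throughout, so a log2 ratio of 1 stands for 2-fold.

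Immature B cells were compared on 2 Agilent two-colour mouse arrays. The cells labelled autoreactive came from BALB.B mice with the genotype 3-83Igi, Rag1-/-, H-2b and were labelled with Cy5. The cells labelled non-autoreactive came from BALB/c mice with the genotype 3-83Igi, H-2d and were labelled with Cy3. 3-83Igi mice, the model shared by both groups, carry a knocked-in antigen receptor that binds class I molecules of the H-2b but not the H-2d haplotype, so the question was how B cells that meet their antigen in the bone marrow differ from those that do not. All cells were pooled, sorted as B220+CD23-CD43-IgD- bone marrow cells from untreated mice, and 0.5 ug of RNA per sample was amplified. The labels give no age, do not say how many mice entered a pool and number the autoreactive pools only. A p-value therefore rests on spread between the 2 arrays, which is drawn largely from all probes tested. Strain, haplotype, dye and the listed Rag1 disruption follow the groups and cannot be told apart from autoreactivity.

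RAG1 and RAG2 together cut DNA at the recombination signals beside V, D and J segments. In B cell precursors they assemble the receptor genes, and in immature B cells that bind self antigen they can replace a light chain, which is called receptor editing. FOXO1 binds and activates the Rag locus and is held out of the nucleus by signalling through PI3K and Akt. IRF4 and IRF8 act in pre-B cells on light chain genes and on the exit from the pre-B cell stage. Ikaros (Ikzf1) and Aiolos (Ikzf3) are zinc finger proteins of the same family with roles at that stage, and GADD45A is a stress-response protein described as acting upstream of Rag expression.

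The 250 bases before the RefSeq start of the Rag genes (assembly GRCm38.p6) are shown because Rag1 and Rag2 are the genes that the regulators above are known to act on and both were called higher. They are written 5′ to 3′ on the strand of the gene, with motif matches in capitals.

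Rag1, chr2:101649533-101649782, minus strand: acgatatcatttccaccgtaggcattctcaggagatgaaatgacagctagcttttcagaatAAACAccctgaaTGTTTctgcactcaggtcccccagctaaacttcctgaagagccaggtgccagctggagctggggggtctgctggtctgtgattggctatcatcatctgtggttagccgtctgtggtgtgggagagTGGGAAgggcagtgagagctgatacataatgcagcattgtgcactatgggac

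Rag2, chr2:101624462-101624711, plus strand: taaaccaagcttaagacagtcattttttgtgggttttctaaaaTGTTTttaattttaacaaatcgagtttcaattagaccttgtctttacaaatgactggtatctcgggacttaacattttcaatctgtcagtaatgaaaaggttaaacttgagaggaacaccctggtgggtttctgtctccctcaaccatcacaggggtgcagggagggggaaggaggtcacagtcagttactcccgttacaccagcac

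The motifs searched on both strands were the FOXO site TGTTTAC, its core TGTTT (which lies within the longer one), the interferon response element (a pair of GAAA runs with 2 free bases between them), the composite of ETS and IRF sites (GGAA and GAAA with 2 free bases between them) and the Ikaros site TGGGAA. The Rag1 window held the FOXO core 2 times and the Ikaros site 1 time, and the Rag2 window held the FOXO core 1 time. Neither held the longer FOXO site, the interferon response element or the composite. Of 32851 windows of that length, 46.4% held the FOXO core, 21.6% the Ikaros site, 3.17% the longer FOXO site, 2.98% the interferon response element and 2.30% the composite. Of the other members, the Foxo1 window held the FOXO core and 1 of the windows of Irf8 the Ikaros site. Windows were found for 8 of the 9 members.

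Rag1, Rag2 and Irf4 were higher in the autoreactive cells, no member was lower, and Foxo1, Irf8, Ikzf1, Ikzf3 and Gadd45a were not called. A gene was called at an adjusted p below 0.05 in limma's test over all probes, and each gene was represented by its brightest tested probe. At that rule 3.52% of the 15103 genes tested were called higher and 2.62% lower. Of the 8 members tested, 3 were called higher, or 37.5%. Rag2, counted among them, was well above background only in the autoreactive channel, where it is high. When both channels had to be well above background, 2 members were called higher. The median log2 ratio of the 8 members tested was 0.31, beside -0.0018 over all genes. By probe, 5 of the 14 tested were higher, where 3.18% of all 22612 probes were, and none was lower, where 2.18% were.

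**Figure D1:**
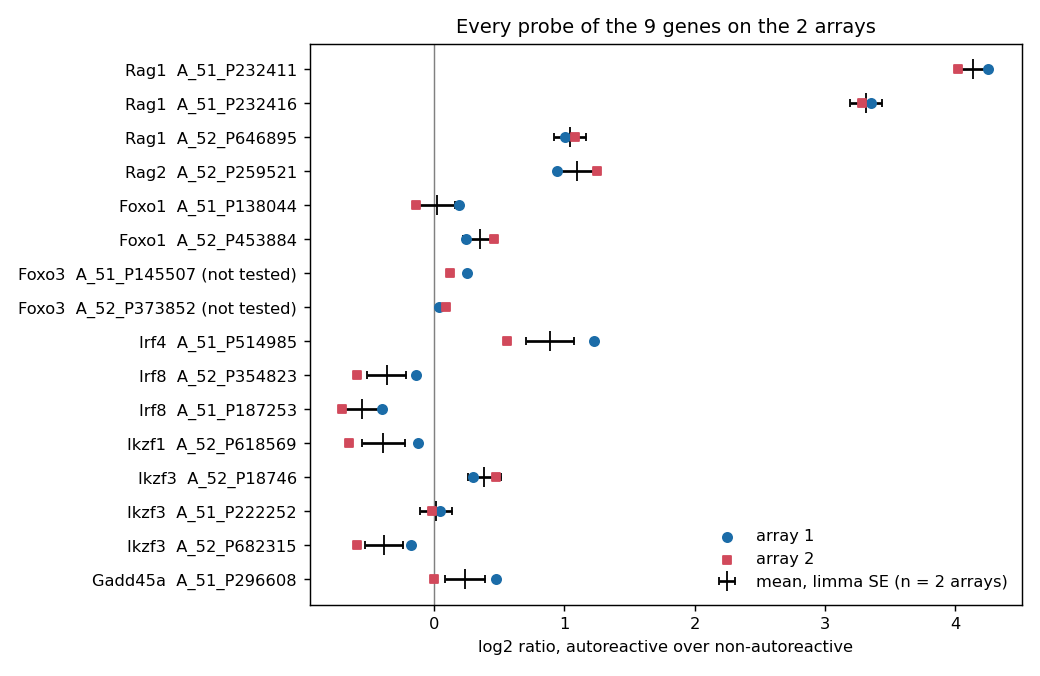
Log2 ratio (autoreactive over non-autoreactive) of each of the 16 probes on array 1 (circles) and array 2 (squares), with the mean and its limma SE (n = 2 arrays) for the 14 probes tested. The 3 Rag1 probes and the Rag2 probe lie at 0.95 or higher on both arrays, and the probes of Foxo1, Foxo3, Irf8, Ikzf1, Ikzf3 and Gadd45a lie between -0.70 and 0.48.

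The autoreactive cells are labelled Rag1-/-, yet Rag1 had the highest mean ratio over the arrays of all 15103 genes. Its brightest probe, A_51_P232411 (chr2:101489372-101489431, minus strand in the array's design), had normalized log2 levels of 11.11 and 11.92 in the non-autoreactive cells of arrays 1 and 2. In the autoreactive cells it stood at 15.36 and 15.94. Both autoreactive levels were above both non-autoreactive ones. The ratios of 4.25 and 4.02 gave a mean of 4.14 ± 0.13 (SE, n = 2 arrays; adjusted p = 0.000461), a 17.6-fold difference. The labels do not say which stretch of the gene is disrupted, so a probe that may lie outside that stretch does not check the label.

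A second Rag1 probe, A_51_P232416 (chr2:101489537-101489597), was printed in 10 spots, of which 9 were kept on array 1. Its spots gave log2 ratios from 3.27 to 3.44 on array 1, with a median of 3.33, and from 3.04 to 3.41 on array 2, with a median of 3.32. No spot of this probe came near 0, the medians of the arrays were close, and the spots of array 2 reached lower. The mean over the arrays was 3.32 ± 0.12 (SE, n = 2; adjusted p = 0.000587), or 9.96-fold. Spots of a probe share their RNA and are not replicates of the condition.

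The third Rag1 probe, A_52_P646895 (chr2:101495236-101495295), lies 5864 and 5699 bases from the others, toward the 5′ end of the gene. Its log2 levels were 7.07 and 7.50 in the non-autoreactive cells against 8.07 and 8.58 in the autoreactive cells. The ratios of 1.00 and 1.08, mean 1.04 ± 0.12 (SE, n = 2; adjusted p = 0.00998), were well below those of the other probes of the gene. Set against A_51_P232411 the ratio was smaller by 3.25 and 2.94 on arrays 1 and 2, and against A_51_P232416 by 2.35 and 2.20. These gaps exceed the difference between the arrays, which was 0.23 or less for each Rag1 probe. In the scanner program's own deposited ratios this probe stood at 1.93 and 1.56, also below A_51_P232411 at 4.39 and 4.18. The probe was dim, with raw non-autoreactive signals of 70.7 and 124 over local backgrounds of 34 and 40 on arrays 1 and 2. Its mean ratio moved with the treatment of background, to 1.28 with a normexp offset of 16 and 1.74 in the deposited ratios. The size of the gap to the other probes therefore moved too, and its cause was not tested. This probe lost its call when the channels were not paired by array (adjusted p = 0.144). The mean over the 3 probes was 2.83 (adjusted p = 0.00166).

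**Figure D2:**
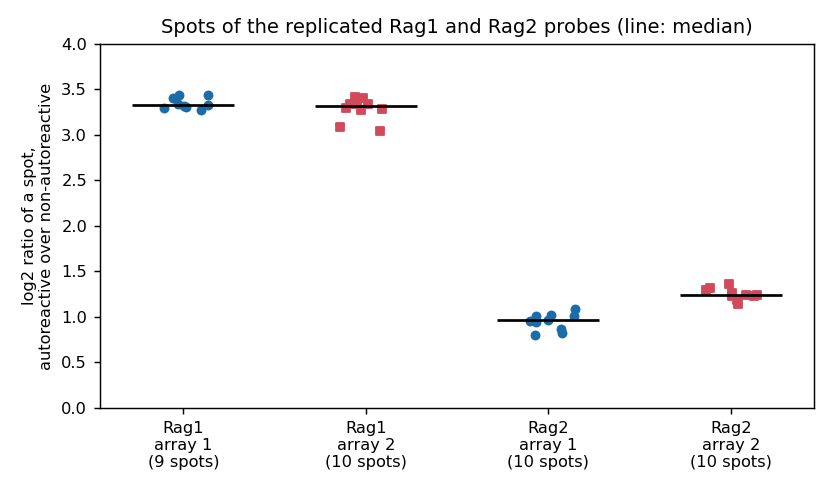
Log2 ratio (autoreactive over non-autoreactive) of each kept spot of the Rag1 probe A_51_P232416 and the Rag2 probe A_52_P259521 on array 1 (circles) and array 2 (squares), with the median as a line. Rag1 spots lie between 3.04 and 3.44 on both arrays, and Rag2 spots between 0.80 and 1.09 on array 1 and between 1.14 and 1.36 on array 2.

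Rag2, the partner of RAG1 in the recombinase, was represented by 1 probe, A_52_P259521 (chr2:101483004-101483063, plus strand). In the non-autoreactive cells 0 of its 10 spots on array 1 and 3 of 10 on array 2 were well above background, while all 10 were in the autoreactive cells on both arrays. The log2 levels were 6.74 and 6.83 in the non-autoreactive cells and 7.69 and 8.08 in the autoreactive cells, with no overlap. Spots ranged from 0.80 to 1.09 on array 1 and from 1.14 to 1.36 on array 2. The mean ratio was 1.10 ± 0.14 (SE, n = 2, adjusted p = 0.0115), or 2.14-fold. Although the non-autoreactive signal was at background, this fold is the value under this processing and not a lower bound. This fold divides the mean of the autoreactive channel by the dim probe's own signal and is open to dye bias here.

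The size of the Rag2 ratio moved with the treatment of background. In the deposited ratios, which subtract it, Rag2 stood at 2.50 and 2.52 (mean 2.51, adjusted p = 0.00247). With a smaller normexp offset of 16 in place of 50 it was 1.47, and with median centring on the probes tested 0.65 (adjusted p = 0.0171). Its call ended when the channels were not paired by array (adjusted p = 0.0684). In rank by mean ratio Rag2 was the gene at place 176 from the top. No difference between Rag1 and Rag2 in response can be read from these ratios, since one signal is at background.

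Genes that neighbour the Rag genes on mouse chromosome 2 were read as a list of 6, all tested, of which 2 were higher and none lower, with a median of 0.099. In the order of the RefSeq annotation (GRCm38.p6, used for names and order only), Iftap is next to Rag2 and Traf6 is next to Rag1. Iftap, which encodes a protein associated with intraflagellar transport, had ratios of 1.03 and 1.35 (mean 1.19 ± 0.14 SE, adjusted p = 0.00951). Traf6, a ubiquitin ligase that relays Toll-like and TNF family receptor signals, had ratios of 0.69 and 0.88 (mean 0.79 ± 0.13 SE, adjusted p = 0.0258). The 4 genes Iftap, Rag2, Rag1 and Traf6, which follow each other in that order, were therefore all called higher. The neighbours beyond them were not called: Prr5l stood at -0.12 and -1.78, Commd9 at -0.038 and 0.15, Ldlrad3 at 0.23 and 0.061, and Trim44 at 0.012 and -0.36. On the other side Lrrc4c was not well above background, and Api5, the next gene tested, had a mean of -0.17 (adjusted p = 0.487). The Traf6 call ended in the deposited ratios (0.79, adjusted p = 0.0606) and in 2 other settings, and the Iftap call ended only without pairing by array. In this segment the autoreactive cells also carry the listed Rag1 disruption, on another strain, and neither can be told apart from autoreactivity here.

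The 5 genes nearest to Rag1 by Euclidean distance in the pair of array ratios were Nyx (0.777), Klra16 (0.805), Klra4 (1.10), Klra7 (1.30) and Prm1 (1.90). Nyx was below Rag1 on both arrays, at 3.48 and 3.90, while Klra16 and Klra4 were below it on array 1 (3.55 and 3.23) and above it on array 2 (4.42 and 4.45). The Klra genes encode Ly49 receptors, a family of near-identical copies whose probes may not separate them. The 5 nearest to Rag2 were Blvrb (0.0181), Esr1 (0.0332), Rps27a (0.0457), Manea (0.0565) and Rpl23a (0.0608). With 2 arrays such nearness rests on 2 values per gene and is a description only.

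Foxo1, the FOXO factor known to activate Rag transcription, was not called. Its brighter probe, A_51_P138044 (chr3:52472787-52472846), had log2 levels of 14.25 and 14.53 in the non-autoreactive and 14.44 and 14.39 in the autoreactive cells, and these overlapped. The ratios of 0.19 and -0.14 gave a mean of 0.027 ± 0.14 (SE, n = 2; adjusted p = 0.926), with a 95% interval from -0.31 to 0.36. The second probe, A_52_P453884 (chr3:52475893-52475952), had 0.25 and 0.46, a mean of 0.36 ± 0.13 (adjusted p = 0.176). Under median centring the brighter probe stood at 1.09 and was called higher, where the median of all genes was 0.58, and under centring on the probes tested it stood at 0.55, also called, where that median was 0.047. The RNA level carries no information on where the protein is in the cell. Foxo3, a close relative with partly shared targets, could not be tested. Its probes stood at 0.25 and 0.12, and at 0.039 and 0.094, each not well above background in some channels.

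Genes that control FOXO1 activity, all 20 of them tested, included 2 that were higher and none lower, with a median of -0.12. Blnk, the adaptor that couples the B cell receptor to its downstream kinases, had ratios of 1.06 and 1.10 (mean 1.08 ± 0.12 SE, adjusted p = 0.00921). Pik3ip1, an inhibitor of PI3K, had 0.76 and 0.97 (mean 0.87 ± 0.13 SE, adjusted p = 0.0197), although its second probe stood at 0.029. Pik3ap1, the adaptor BCAP, had -0.57 and -0.37 (adjusted p = 0.101) and was not called. The kinases Akt1 and Akt2 stood at 0.39 and -0.19, neither called.

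Of 16 FOXO target genes 15 were tested, 3 were higher and none lower, with a median of 0.17. Ccng2, a cyclin linked to cell cycle arrest, had ratios of 0.76 and 1.01 (mean 0.88 ± 0.13 SE, adjusted p = 0.0204). Il7r, a chain of the IL-7 receptor of B cell precursors, had 0.53 and 0.84 (mean 0.68 ± 0.14 SE, adjusted p = 0.0467), with its other 2 probes at 0.80 and 0.85. Cdkn1b, the cell cycle inhibitor p27, had 0.68 and 0.61 (mean 0.64 ± 0.12 SE, adjusted p = 0.0400), while its other 2 probes stood at -0.35 and 0.36. The calls of Il7r and Cdkn1b each ended in 6 of 10 other settings and that of Ccng2 in 2.

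Irf4, a factor for light chain transcription and receptor editing, was called higher. Its probe, A_51_P514985 (chr13:30132137-30132196), had log2 levels of 12.63 and 12.92 in the non-autoreactive cells and 13.86 and 13.48 in the autoreactive cells, without overlap. The arrays differed in size, with ratios of 1.23 and 0.56. That gap of 0.67 was above the 90th percentile over all probes tested, 0.54. The mean was 0.89 ± 0.18 (SE, n = 2; adjusted p = 0.0489), or 1.86-fold. The call ended in 6 of 10 other settings, among them the deposited ratios (0.94, adjusted p = 0.0718) and the fit without pairing by array (adjusted p = 0.133), and the ratio stayed at 0.89 or higher in all 10.

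Irf8, the relative of IRF4 that is also a factor of dendritic and myeloid cells, was not called. Its brighter probe, A_52_P354823 (chr8:119391398-119391457), had log2 levels of 15.78 and 16.11 in the non-autoreactive and 15.65 and 15.52 in the autoreactive cells. The ratios of -0.14 and -0.58 gave a mean of -0.36 ± 0.15 (SE, n = 2; adjusted p = 0.223). The second probe, A_51_P187253 (chr8:119390963-119391022), had -0.40 and -0.70, a mean of -0.55 ± 0.14 (adjusted p = 0.0801). Under median centring in place of loess both probes turned positive, at 0.92 and 0.31. Both autoreactive levels of the brighter probe lay below both non-autoreactive ones.

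**Figure D3:**
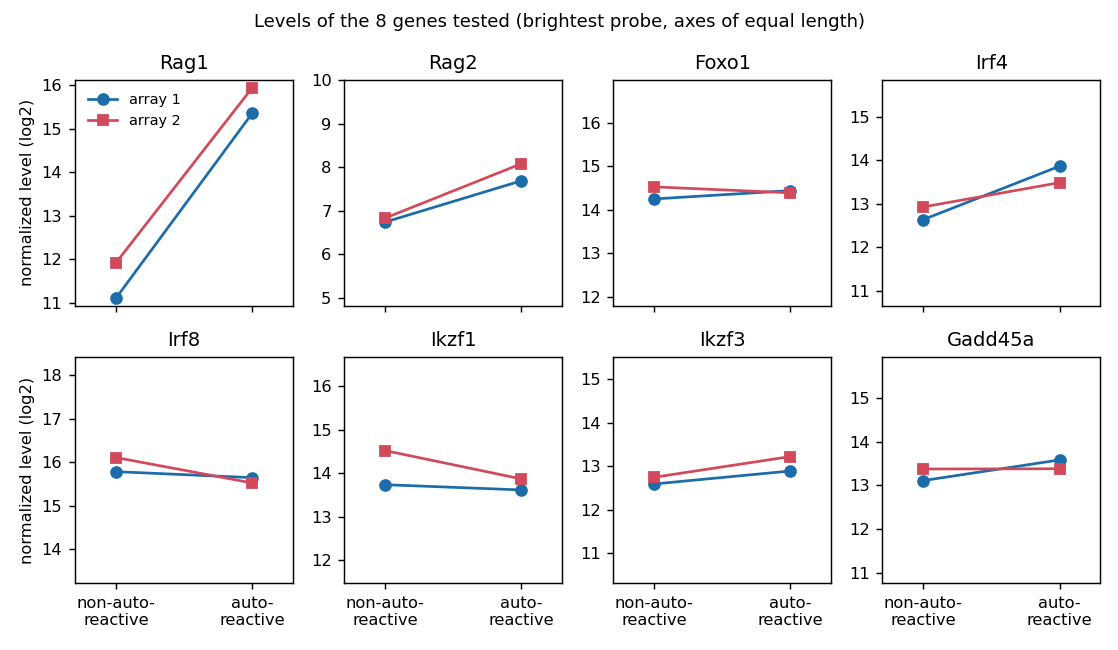
Normalized log2 level of the brightest probe of the 8 tested members in the non-autoreactive and autoreactive cells of array 1 (circles) and array 2 (squares), joined within an array, on axes of equal length. The groups do not overlap for Rag1, Rag2, Irf4, Ikzf3 and Gadd45a, which are higher in autoreactive cells, or for Irf8, which is lower. They overlap for Foxo1 and Ikzf1. The separation is narrow for Gadd45a, and Rag2 is at background in the non-autoreactive cells.

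Ikzf1, which encodes Ikaros, had 1 probe, A_52_P618569, given at chr11:11710324-11713283, a span of 2960 bases and hence across a splice junction. Its log2 levels of 13.74 and 14.52 in the non-autoreactive and 13.62 and 13.87 in the autoreactive cells overlapped. The ratios of -0.12 and -0.65 had a mean of -0.39 ± 0.16 (SE, n = 2; adjusted p = 0.224), which became 0.61 under median centring.

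Ikzf3, which encodes Aiolos, had 3 probes that did not point the same way. A_52_P18746 (chr11:98593331-98593390), the brightest, had 0.30 and 0.48, a mean of 0.39 ± 0.13 (SE, n = 2; adjusted p = 0.146). A_52_P682315 (chr11:98622826-98622884) had -0.18 and -0.59, a mean of -0.38 ± 0.15 (adjusted p = 0.197). A_51_P222252 (chr11:98576444-98576503) had a mean of 0.018 ± 0.12 (adjusted p = 0.944). The non-autoreactive log2 levels on arrays 1 and 2 were 12.59 and 12.74 for A_52_P18746 and 8.38 and 9.42 for A_52_P682315. For A_51_P222252 they were 7.03 and 7.10, so this probe was dim and its ratio near 0 carries little weight. Each probe was designed on a different cDNA of the older name Zfpn1a3, and none was called.

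Gadd45a, through A_51_P296608 (chr6:67017167-67017226), had log2 levels of 13.11 and 13.38 in the non-autoreactive and 13.59 and 13.38 in the autoreactive cells. Its ratios of 0.47 and 0.0055 gave a mean of 0.24 ± 0.15 (SE, n = 2; adjusted p = 0.392), with a 95% interval from -0.14 to 0.62. The difference rested on array 1. Gadd45a and the brightest Ikzf3 probe were called higher under both centrings, at 1.14 and 0.61 for Gadd45a and 1.22 and 0.68 for Ikzf3. The other Ikzf3 probes, A_51_P222252 and A_52_P682315, stood at 0.029 and -0.013 under median centring. Under centring on the probes tested both were called lower, at -0.51 (adjusted p = 0.0251) and -0.55 (adjusted p = 0.0248).

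Between the groups 5 of the 8 members had both autoreactive levels above both non-autoreactive ones, where 23.9% of all genes did. Another 1 had both below, where 22.4% did. Among the 5, Gadd45a was separated narrowly, at 13.384 (autoreactive) against 13.3785 (non-autoreactive) on array 2. Rag2, also among them, had a non-autoreactive signal at background. The relatives of the members numbered 14, of which 10 were tested, none higher and 1 lower, with a median of -0.019. The gene called was Irf5, a factor of interferon and inflammatory responses, which fell by 1.00 on array 1 and had a log2 ratio of -0.66 on array 2 (mean -0.83 ± 0.14 SE, adjusted p = 0.0280). Under median centring Irf5 stood at -0.030, not called. Irf7, a relative with a central role in interferon production, stood at -0.40 and -0.97 (adjusted p = 0.0781). Gadd45b stood at -0.77 and -0.20, and Ikzf4 at 0.23 and 0.26, neither called.

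Other factors that act on Rag transcription were a list of 23, all tested, with 3 lower and none higher. The median was 0.11, but -0.18 in the deposited ratios. Bcl11a, a zinc finger factor needed for early B cell development, had ratios of -1.21 and -1.37 (mean -1.29 ± 0.13 SE, adjusted p = 0.00670), and its other 2 probes stood at -2.35 and -2.20. Pax5, the factor that holds B lineage identity, had -0.77 and -1.33 (mean -1.05 ± 0.17 SE, adjusted p = 0.0245), with a second probe at -0.40. The Pax5 ratio was -0.012 under median centring, and its call ended in 4 of 10 other settings. Spib, an ETS factor of B cells and plasmacytoid dendritic cells, had -0.70 and -0.58 (mean -0.64 ± 0.12 SE, adjusted p = 0.0421), which turned to 0.64 under median centring and 0.11 under centring on the probes tested. Gfi1b, a repressor of Rag transcription, stood at -0.47 and -0.73 (adjusted p = 0.0615). Among activators not called, Ebf1 stood at 0.39, Tcf3 at 0.22, Myb at 0.50 and Ets1 at -0.19.

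The list for control of RAG protein and its partners in recombination held 19 genes, all tested, of which 2 were higher and none lower, with a median of -0.059. Xrcc6, the Ku70 subunit that binds broken ends, had ratios of 0.54 and 0.92 (mean 0.73 ± 0.14 SE, adjusted p = 0.0437). Cdkn1b is also on this list. Dntt, the transferase that adds untemplated bases at joins, stood at -0.33 and -1.64 (adjusted p = 0.123), and Ccna2, the cyclin of the kinase that marks RAG2 for destruction, at -0.067 and -0.88 (adjusted p = 0.234). The Xrcc6 call ended in 5 of 10 other settings.

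Genes that IRF4, IRF8 or the Ikaros family are known to control in B cell precursors numbered 16, all tested, with 3 higher and 4 lower and a median of 0.0090. The surrogate light chain genes were lower. Vpreb1 had ratios of -1.50 and -1.97 (mean -1.74 ± 0.15 SE, adjusted p = 0.00519), Igll1 of -1.17 and -1.73 (mean -1.45 ± 0.17 SE, adjusted p = 0.00951) and Vpreb2 fell by 1.00 on array 1 and had -1.07 on array 2 (mean -1.04 ± 0.12 SE, adjusted p = 0.0101). Vpreb3, a chaperone-like protein of B cell precursors, was higher at 0.75 and 0.95 (mean 0.85 ± 0.13 SE, adjusted p = 0.0209), but its second probe stood at 0.14. Vpreb3 was not called in the deposited ratios (0.32, adjusted p = 0.295), 1 of the 3 settings without that call. Blnk and Il7r were the other genes called higher, and Spib the other called lower.

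**Figure D4:**
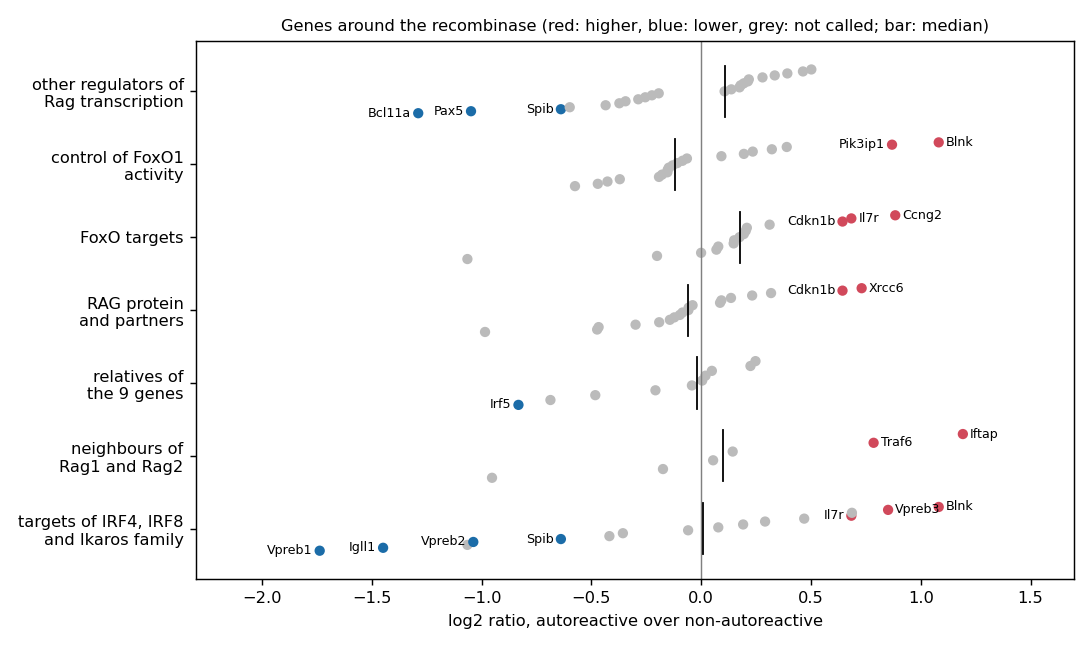
Mean log2 ratio (autoreactive over non-autoreactive) of each tested gene in 7 lists of genes around the recombinase, with the list's median as a bar; called genes are coloured and named. All 7 medians lie between -0.12 and 0.17 under loess scaling. Called genes number 9 higher and 7 lower over the lists, where 3.52% of all genes tested were called higher and 2.62% lower.

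Of all genes tested 3.52% were called higher and 2.62% lower, the shares to set beside the counts of each list of genes or markers. Over the 7 lists 9 different genes were called higher and 7 lower. Each of the 16 lost its call in at least 1 of 10 other settings and at most in 6. Counts of all genes depend on scaling as well: median centring moved the median of all genes to 0.58. The directions above are relative to loess scaling. The list medians ran from 0.58 to 1.00 under median centring and from 0.044 to 0.47 under centring on the probes tested. On arrays 1 and 2 they were 0.16 and -0.38 for targets of IRF4, IRF8 and the Ikaros family. They were 0.15 and -0.19 for the other factors that act on Rag transcription. The other list medians had the same sign on both arrays.

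Some of the cell type markers differed between the pools. In such bulk samples fewer cells of a type and less RNA per cell cannot be told apart. Of 7 mature B cell markers tested, 6 were lower in the autoreactive cells, with a median of -1.71. Their summed level was 43068 to 47281 in the autoreactive and 224907 to 270311 in the non-autoreactive cells. Ms4a1, the CD20 gene, had -4.02 and -3.21 (adjusted p = 0.00145). Fcer2a, which encodes CD23, a marker that the sort selected against, had -1.68 and -1.73 (adjusted p = 0.00285). Of the B lineage markers all 8 were tested, with 2 higher, 2 lower and a median of 0.12. Ighm, the heavy chain of IgM, had a mean ratio of 1.00 and the kinase gene Blk of 0.69, both higher, while Ptprc, whose product includes B220, had -0.85 and Pax5 -1.05, both lower. Ptprc turned to 0.36 under median centring. Of 10 other settings, 3 removed the call of Ighm, 5 that of Blk and 4 that of Ptprc. With the scanner program's own ratios Ighm fell to 0.41 (adjusted p = 0.264), while Blk, at 0.70, missed the threshold (adjusted p = 0.083). Of the 8 pro-B and pre-B cell markers, all tested, 2 were higher and 3 lower, with a median of -0.73. The higher ones were Il7r and Il2ra, a marker of small pre-B cells among others, at 1.02 and 1.27 (adjusted p = 0.00951), and the lower ones were the surrogate light chain genes above. The part of these differences in the Rag1, Rag2 and Pax5 ratios was not tested.

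Plasmacytoid dendritic cells can carry B220 and express Irf8, Irf7, Spib and Bcl11a. All 12 of their markers were tested and had negative ratios, 3 of them called lower, and their medians were -0.73 (array 1) and -2.08 (array 2). Under median centring 10 of the 12 were negative. Their summed level was 79174.5 to 82222 in the autoreactive and 152065 to 158896 in the non-autoreactive cells, and on both arrays each marker had a signal well above background in 1 or both channels. Siglech, a defining marker, had -0.87 and -2.77 (adjusted p = 0.0610). The NK cell markers had medians of -0.038 and -1.33, the granulocyte markers 0.066 and -0.85, and the myeloid markers 0.13 and -0.61. Array 2 was the lower one for all 4 of these lists. It was also lower for T cell markers (-0.19 and -0.70) and pro-B and pre-B cell markers (-0.23 and -0.94). The arrays were close for erythroid (-0.52 and -0.53) and mature B cell markers (-1.68 and -1.73). For B lineage markers array 2 was higher (0.10 and 0.28). None of the 9 NK cell markers or the 7 myeloid markers was called, and 1 of the 8 granulocyte markers, Ltf, was lower. Under median centring all 8 granulocyte markers were positive and 6 were called higher, with Ltf at 0.40. The Ltf call ended in 6 of 10 other settings. By their brightest probes, Rag1, Foxo1, Irf4, Irf8, Ikzf1 and Gadd45a had a lower ratio on array 2 than on array 1. Rag2 and Ikzf3 had a higher ratio on array 2. Over all genes tested the medians were 0.0087 on array 1 and -0.010 on array 2. The gap between arrays was 0.23 for Rag1, beside a median of 0.19 over all probes tested. The part of plasmacytoid dendritic, NK, granulocyte and myeloid cells in the ratios of the members, Irf5, Spib and Bcl11a was not tested. Of the T cell markers 6 were tested and 1 was lower, with a median of -0.46, while Cd4 and Bcl11b were not well above background. Of the erythroid markers 6 were tested and 2 were lower, with a median of -0.51. Under median centring the erythroid median was 0.024. The calls of the 2 lower ones, Hemgn and Slc4a1, ended in 7 and 6 of 10 other settings.

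**Figure D5:**
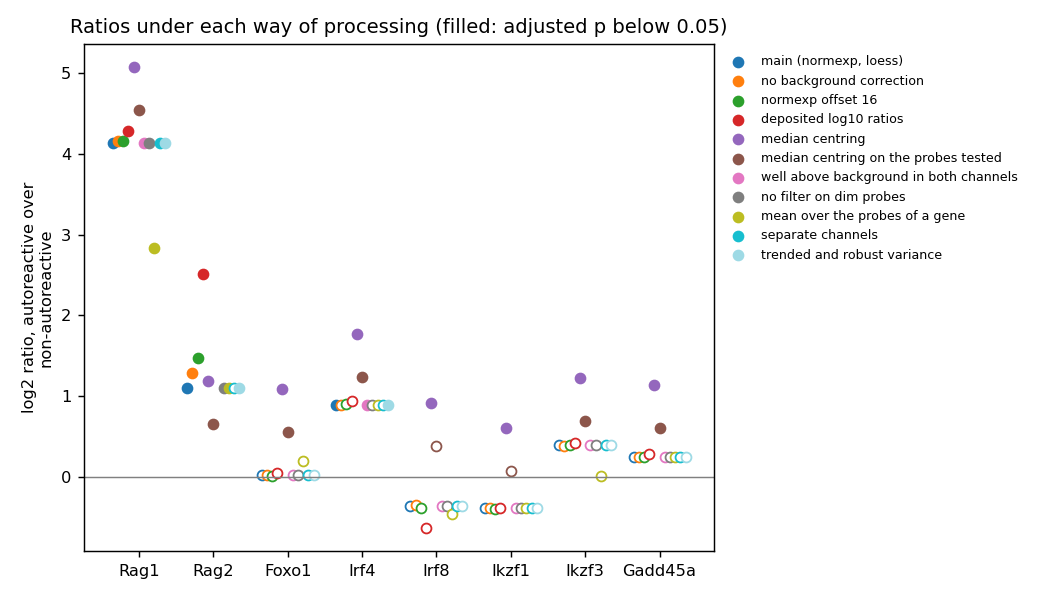
Log2 ratio (autoreactive over non-autoreactive) of the 8 tested members under the main processing and each alternative; filled points have an adjusted p below 0.05. Rag1 lies between 2.83 and 5.07 in every alternative and Rag2 between 0.65 and 2.51, while Irf8 and Ikzf1 lie on both sides of 0.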

How the data were processed

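Levels were measured in 2 autoreactive and 2 non-autoreactive RNA samples on 2 arrays of 1 slide and 1 scan. The authors' scanner files give, for each channel, the mean intensity of a spot and the median intensity around it, extracted by Agilent Feature Extraction (version 9.5.1.1 in the file headers). That program also wrote the deposited log10 ratio (Cy5 over Cy3). The same log10 ratio, to within 5e-10 and with a median of 0 on both arrays, makes up the deposited series table. The deposited flags for outlier spots and for spots well above background were used as given.

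Of 43379 gene spots per array none was saturated, and 54.1% to 57.4% were well above background in a channel. The number of arrays limits the precision. With R 4.3.3 and its package limma 3.58.1, intensity was corrected with normexp (offset 50) and loess was applied within each array, in which neither control spots nor outliers counted. Outliers were then dropped and a probe's spots averaged. A line of a file that held 2 spots was split. A probe was tested when well above background, in more of its spots than not, in at least 1 channel on each array, which held for 22612 of 41174. Log2 ratios were tested against 0 by a two-sided lmFit and eBayes fit, with p-values adjusted by Benjamini-Hochberg across the probes tested and called below 0.05. Residual degrees of freedom were 1 and prior ones 5.10, so the error of a probe is drawn largely from all probes. A gene stood for its brightest tested probe (15103 genes). Normalized levels per channel followed loess and Aquantile scaling, and summed levels are sums of them on the linear scale.

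Probes were named through RefSeq (GRCm38.p6): 22951 by their main accession, 124 by another, 3077 by a synonym that fits 1 gene and 6582 by a current symbol, while 8440 stayed as the file names them. Of the 16 member probes 4 were matched by synonym. Positions of probes were read from the scanner files, whose genome build is not given in the sources used here, and cannot be set against the GRCm38.p6 promoter windows.

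The members, the 7 lists of related genes and the marker lists were chosen with earlier results of these data known. The genes named are all members, every called gene and up to 4 genes per list whose ratio lies farthest from 0, and the 5 nearest to Rag1 and to Rag2; other genes were picked after their values were seen (Akt1, Akt2, Ebf1, Tcf3, Myb, Ets1, Commd9, Ldlrad3, Lrrc4c, Api5 and the markers given). Trac, Hbb-b1 and Ighd were not found by name and were not analysed here, and some other genes that the rule names are not reported here. The procedure was tested on simulated data. Alternatives were no background correction, a normexp offset of 16, the deposited ratios, the mean over a gene's probes, a looser and a stricter filter on dim probes, 2 ways of median centring, a trended and robust variance, an unpaired fit of the channels, and each array alone. Figures were drawn with matplotlib 3.10.9.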

Additional observations from a re-analysis of the deposited data

How the results depend on the processing

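Over 14 ratios (the 8 members and their further probes) and up to 10 alternatives each, 133 values were recomputed: 110 kept direction and call, 8 lost the call, 9 gained it and 6 changed sign. Rag1 kept its call in all 10 alternatives (2.83 to 5.07), Rag2 in 8 of 9 and Irf4 in 4 of 10. Of the 8 members tested, 3 were called higher. This count became 8 with median centring, 6 with median centring on the probes tested (chosen after seeing the data) and 1 without pairing by array. It was 2 in the deposited ratios, with the mean over a gene's probes, with no background correction and with a normexp offset of 16. It was also 2 with the looser and the stricter filter on dim probes, and stayed at 3 only with a trended and robust variance. Ikzf1 turned to 0.61 and 0.071 under the 2 centrings, Irf8 to 0.92 and 0.38, its second probe A_51_P187253 to 0.31 under median centring, and the Ikzf3 probe A_51_P222252 to -0.51 under centring on the probes tested. With each array alone, which gives values and no test, Rag1 was 4.02 and 4.25, Rag2 0.95 and 1.25, Irf4 0.56 and 1.23, Foxo1 -0.14 and 0.19, and the Ikzf3 probe A_51_P222252 -0.011 and 0.048. Of the listed genes 9 were higher; this became 2 in the deposited ratios, 82 with median centring, 36 with centring on the probes tested, 1 without pairing and 5 with a trended and robust variance. The 7 lower became 4, 13, 2 and 0 under the last 4 of these, and 4 without a filter on dim probes. Of all genes 531 were higher and 396 lower. Higher genes numbered 299 in the deposited ratios, 9922 with median centring, 2788 with centring on the probes tested and 106 without pairing. Lower genes numbered 2504 with centring on the probes tested, 244 without a filter, 71 without pairing and 11 with a trended and robust variance. The share of calls that were higher was 57.3%, against 96.3% with median centring, 97.0% with a trended and robust variance and 49.0% in the deposited ratios. The cause of these shifts was not tested. The pairing was that of the 2 channels of an array, and the fit with no replicate block is the one without it; with 1 slide and 1 scan, neither could be a block. Signal over background limits Rag2 and Foxo3 most.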
